A study of Mus musculus with 6 samples.

Results

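Macrophage and other myeloid nuclei of the mouse left ventricle were studied in 6 single-nucleus RNA sequencing libraries, in which they made up 2424 of the 48438 nuclei that passed quality control (5.00%). The nuclei were chosen by their RNA: a member held at least 3 unique molecular identifiers (UMIs, each standing for 1 captured RNA molecule) over Mrc1, F13a1, Cd163, Adgre1, Csf1r and Cd86, from at least 2 of these genes. It also had to hold at most 1 UMI over Pdgfra, Cdh5 and Rgs5, which mark fibroblasts, endothelial cells and pericytes, at most 1 UMI over the lymphatic genes Mmrn1 and Reln, and under 1% of its UMIs from the cardiomyocyte genes Ttn, Ryr2 and Myh6. The levels of these genes therefore describe the choice of nuclei and are not a finding.

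The 3 groups held 2 libraries each, all from 50 mg of left ventricle of male mice aged 12 weeks. WT-CD were wild-type littermates on a control diet. R403Q-CD carried 1 allele of the Myh6 R404Q substitution, the mouse counterpart of the human R403Q change that causes hypertrophic cardiomyopathy, and ate the same control diet. R403Q-EMPA had the same genotype and from 9 to 10 weeks of age ate a diet with 0.15 mg of empagliflozin, an inhibitor of the sodium-glucose cotransporter SGLT2, per g of food (about 15 mg/kg of body weight). The labels also state a diet length that is too long for hearts taken at 12 weeks of age, while the study's methods place the sampling for RNA sequencing early in the treatment, so no duration is given here. No wild-type library received empagliflozin, so the drug was compared within the mutant genotype and against untreated wild type only. Myh6 encodes the myosin heavy chain of cardiomyocytes, and the substituted protein is not made by macrophages. The labels do not say that the libraries of a group came from separate animals, so p-values measure the spread between these libraries, which may be technical. They name no batch either, and a batch that coincided with the groups cannot be told apart from them.

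Cardiac macrophages are the most numerous immune cells of the healthy heart. Resident macrophages seeded before birth renew themselves in place, carry the hyaluronan receptor LYVE1, the phosphatidylserine receptor TIMD4 and the folate receptor FOLR2, and clear dying cells and spent mitochondria of cardiomyocytes. Macrophages that descend from circulating monocytes carry the chemokine receptor CCR2, and populations of either origin can present antigen on MHC class II. They differ from neutrophils, mast cells and lymphocytes, which express other defining genes.

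The total of all UMIs per library ranged from 31787308 to 45397128, and the members contributed 723970 to 1714380 UMIs per library. The median member held 3058.5 UMIs, and the median share of mitochondrial UMIs in members ranged from 1.90% to 3.28% over the libraries. The members held a median of 36 UMIs of the 6 marker genes, and 88.7% of them held 10 or more. At the threshold, 38 members held exactly 3 marker UMIs and 526 nuclei outside held 2. A further 356 nuclei reached the marker threshold and were left out for genes of another type. Of the members, 148 (6.11%) were called doublets, 2 nuclei in 1 droplet, and these were kept in the main fits and removed in an alternative. The libraries shared 1 member barcode, between WT-CD 1 and R403Q-EMPA 1.

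Genes that the rule did not read were checked next. Ptprc, the CD45 antigen of blood-derived cells, lay between 769 and 856 counts per 1000000 UMIs (CPM) in members and did not pass 7.5 CPM in fibroblast or endothelial nuclei. Spi1, the transcription factor PU.1 of the myeloid lineage, lay between 246 and 312 CPM, and Cybb, a subunit of the phagocyte oxidase, between 242 and 385 CPM. The adaptor genes Tyrobp (77.4 to 139 CPM) and Fcer1g (104 to 196 CPM) were present in every library. Of 8 genes listed for neutrophils, 7 were at or near 0, with 0 UMIs of S100a8, Ly6g and Retnlg and at most 6 UMIs of S100a9, Cxcr2, Mmp9 and Trem1 over all members. The exception was Csf3r, the receptor for granulocyte colony-stimulating factor, which monocytes also express, with 511 UMIs and 44.4 to 86.1 CPM. Mast cell genes were near 0 too, with 0 UMIs of Fcer1a, 5 of Cpa3 and 4 of Tpsb2, and the T cell genes Cd3e and Cd3g had 5 and 2 UMIs. The T cell adaptor gene Skap1 had 65 UMIs and 0.83 to 30.4 CPM. Of the 14 lymphocyte genes listed, the other T, B and natural killer cell genes had 0 to 39 UMIs, except Bank1, listed as a B cell gene, with 8968 UMIs and 477 to 1433 CPM. Of 12 genes listed for dendritic cells, Xcr1, Ccr7, Clec9a, Cd209a, Klra17, Flt3 and Itgax had 3 to 72 UMIs and Batf3 had 120. The others, Zbtb46, Irf8, Siglech and Clec10a, had 383 to 687 UMIs, and the summed level of the list was 246 to 336 CPM in members. Myeloid genes outside the rule were thus present in every library, beside Csf3r, Bank1, Zbtb46, Irf8, Siglech and Clec10a from the lists of other immune cells.

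Clustering of the members on their own gave 10 subclusters, which are numbered here and described by their leading genes, without a test because the same genes formed them. Subcluster 2 (423 nuclei) was led by Retnla, Hal, Lyve1 and Ccl6, and held 1277 CPM of Lyve1, 198 CPM of Timd4 and 137 CPM of Folr2. Subcluster 6 (424 nuclei) was led by Slc22a23, Slc40a1, which encodes the iron exporter ferroportin, Sema6a and Clec10a, and held 622 CPM of Lyve1. Subclusters 1 (385 nuclei) and 3 (310 nuclei) held the MHC class II genes, with 689 and 988 CPM of H2-Eb1 against 31.6 CPM in subcluster 6. Subcluster 3 added Il1b, Mmp13 and the fractalkine receptor gene Cx3cr1, and held 159 CPM of Ccr2 and 41.1 CPM of Lyve1.

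The smaller subclusters were more distinct. Subcluster 4 (159 nuclei) was led by the monocyte-attracting chemokines Ccl2 and Ccl7 beside Fmn2. Subcluster 9 (75 nuclei) was led by Cd244a, Sirpb1a, Bcl11a and Cd226, held 768 CPM of Ccr2, 127 CPM of Cd209a and 1187 CPM of H2-Eb1, and had no UMI of Lyve1 or Timd4. Subcluster 10 (70 nuclei) was led by the cell division genes Mki67 (1142 CPM) and Top2a (879 CPM). Subcluster 7 (373 nuclei) was shallow, with a median of 2030 UMIs, and its leading genes, Nppa among them, gave it no identity. Subclusters 5 (95 nuclei, led by the fibroblast-expressed Slit3 and Sgcd) and 8 (110 nuclei, led by Cyyr1 and the endothelial Flt1) held 144 of the 148 doublet calls. The counts of changed genes were therefore also made without subclusters 5 and 8.

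**Figure D1:**
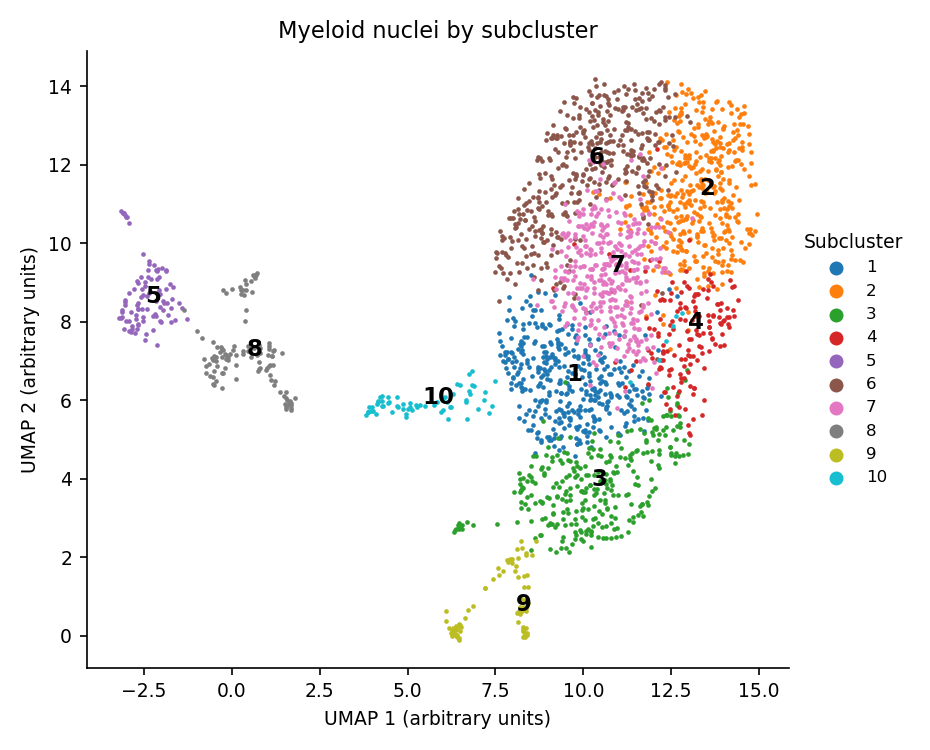
UMAP of the 2424 member nuclei; the axes are UMAP coordinates without units, each point is 1 nucleus and the colours are the 10 subclusters. Subclusters 1, 2, 6 and 7 hold between 373 and 424 nuclei each, and the cycling nuclei of subcluster 10 number 70.

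The share of nuclei that were myeloid varied most between the WT-CD libraries. Members were 639 of 10170 nuclei in WT-CD 1 (6.28%; 95% Wilson interval, for counting error only, 5.83% to 6.77%) and 308 of 8027 in WT-CD 2 (3.84%; 3.44% to 4.28%). In the mutant hearts on control diet they were 446 of 7939 (5.62%) and 357 of 7305 (4.89%). In the hearts of mice given empagliflozin they were 393 of 8243 (4.77%) and 281 of 6754 (4.16%). The WT-CD libraries lay at both extremes and enclosed all the others, and both R403Q-EMPA libraries lay below both R403Q-CD libraries. This separation was lost, with R403Q-EMPA 1 above R403Q-CD 2, when doublets were removed (4.82% against 4.74%), under a stricter member rule of 5 marker UMIs from 3 genes (4.44% against 4.37%), without the mitochondrial limit (3.78% against 3.64%) and with cardiomyocyte nuclei left out of the total (6.05% against 5.79%). The mean share of R403Q-EMPA was 0.79 percentage points below that of R403Q-CD (exact permutation test, two-sided, p = 0.33, the smallest that 2 against 2 libraries allows, so no such test here could pass 0.05), a difference that ran from -0.42 points without R403Q-CD 1 to -1.15 points without R403Q-CD 2. The shares of R403Q-CD and WT-CD differed by 0.19 points and those of R403Q-EMPA and WT-CD by -0.60 points (exact permutation test, p = 1 for both).

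**Figure D2:**
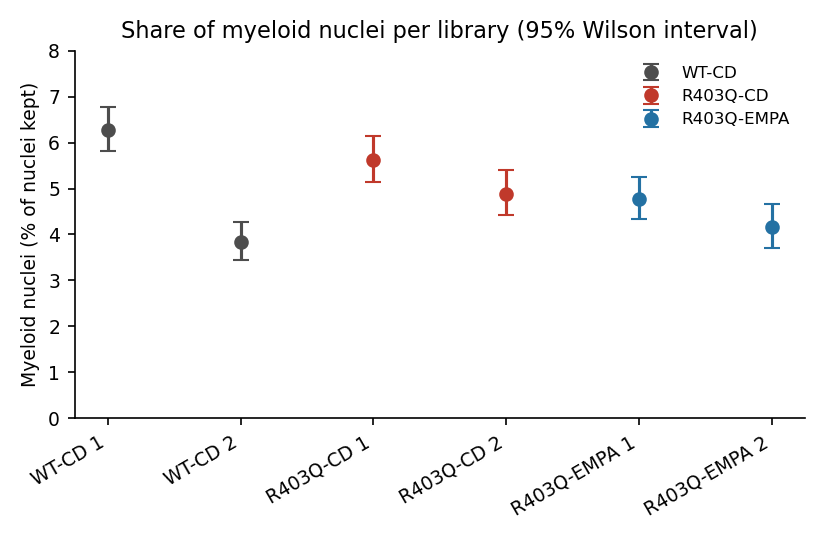
Members as a percentage of the nuclei that passed quality control, by library; points are the shares and bars their 95% Wilson intervals. The WT-CD libraries lie at 6.28% and 3.84% and the other 4 libraries between them.

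Member states were compared by the share of nuclei with a UMI of a state gene after thinning each nucleus to 500 UMIs, so that depth could not set the share. Lyve1 was seen in 22.2% and 21.1% of members of WT-CD, 16.8% and 17.1% of R403Q-CD, and 19.6% and 21.4% of R403Q-EMPA. Both R403Q-CD libraries were below all the others at this depth. Without thinning the shares were 51.3% and 61.4%, 49.3% and 48.7%, and 45.8% and 52.3% in the same order of groups, with R403Q-EMPA 1 the lowest, and under the stricter member rule R403Q-EMPA 1 (16.9%, thinned) was again below both R403Q-CD libraries (18.7% and 17.9%). Endothelial nuclei, which include lymphatic ones that express Lyve1, showed it in 1.81% to 4.45%. Timd4 was seen in 4.85% and 5.84% of members of WT-CD, 5.16% and 2.80% of R403Q-CD, and 1.02% and 2.49% of R403Q-EMPA, so both R403Q-EMPA libraries were the lowest. Without thinning the Timd4 shares were 21.1% and 24.0%, 19.7% and 19.6%, and 6.36% and 9.25%.

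The other states differed between libraries of a group. Ccr2 was seen in 1.10% and 0.974% of members of WT-CD and in 2.47% and 1.12% of R403Q-CD. In R403Q-EMPA it was seen in 6.11% and 1.07%, so that R403Q-EMPA 1 stood apart from its partner. Ccr2 was 116 CPM in R403Q-EMPA 1 against 12.6 CPM in R403Q-EMPA 2, and subclusters 3 and 9, which hold most of this gene, took 21.6% and 5.09% of the members of the first library against 7.47% and 0.712% of the second. H2-Aa, an MHC class II gene, ranged from 8.19% to 17.4% of members with a UMI, and each group held 1 of the 3 highest libraries. Mki67 was seen in 0.939% to 2.54% of members. All permutation p-values of the state shares were 0.33 or larger.

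The first comparison asked how macrophages of the mutant heart differ from wild type before drug treatment. With edgeR's quasi-likelihood test on UMI counts summed per library, none of 11153 genes passed an adjusted p (Benjamini-Hochberg) of 0.05 between R403Q-CD and WT-CD, a background of 0%. At an unadjusted p under 0.05 were 425 genes (3.81%; 1.98% higher and 1.83% lower), and DESeq2 called 2 genes. Values below are therefore descriptions of direction and size, with levels as CPM after TMM scaling in the order WT-CD 1 and 2, R403Q-CD 1 and 2, and R403Q-EMPA 1 and 2.

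The gene lists here and below were chosen with earlier results of these data known, so their counts are descriptions. The resident macrophage list was lower in R403Q-CD at 16 of its 18 genes, with a median log2 fold change of -0.33 beside -0.0065 over all genes. Of the 18, 6 were below an unadjusted p of 0.05, all in the direction of less RNA (1.83% of all genes). These counts include Mamdc2, the gene with the smallest p of this comparison. Mamdc2, which encodes a protein with MAM domains, had 45.9 and 34.2 CPM in WT-CD, 4.31 and 5.49 in R403Q-CD, against 6.19 and 9.80 in R403Q-EMPA. Every mutant library was below both wild-type ones, and the log2 fold change of R403Q-CD against WT-CD was -3.03 ± 0.37 (SE, n = 2 libraries a group). Mamdc2 passed the filter on low counts only through WT-CD, where it is high, so no p of a group comparison in members is given for it. Without subclusters 5 and 8 the change of Mamdc2 was -3.72. The wild-type level came mainly from subcluster 2, which held 78 of the 117 wild-type UMIs of Mamdc2, and these 117 UMIs lay in 29 nuclei of WT-CD 1 and 16 of WT-CD 2.

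Lyve1 had 659 and 615 CPM in WT-CD, 436 and 450 in R403Q-CD, against 506 and 669 in R403Q-EMPA, so that only the R403Q-CD libraries lay under 500 CPM (log2 fold change -0.53 ± 0.17 against WT-CD, adjusted p = 1 in edgeR). The lectin gene Mgl2 followed at 188 and 153, 110 and 114, and 109 and 148 CPM (-0.61 ± 0.18). The other members of the list at an unadjusted p under 0.05 were Timd4 (-0.54), Ccl24 (-0.86, and -0.34 without WT-CD 1) and the scavenger receptor gene Cd36 (-0.35). In sums over nuclei, fewer nuclei of a kind and less RNA per nucleus cannot be told apart. Subcluster 2, which Lyve1 helped to form, held 18.6% and 24.0% of the members of WT-CD against 16.1% and 9.52% of R403Q-CD. Subcluster 3 held 7.98% and 10.7% against 15.5% and 14.3%, and subcluster 6 held 14.7% and 16.2% against 22.6% and 18.8%. Every library held members of all 10 subclusters, and the libraries of the groups did not overlap in these 3 shares (exact permutation test, p = 0.33 for each). The same held for subcluster 4 (7.51% and 10.4% in WT-CD against 6.50% and 7.28% in R403Q-CD). It also held for subcluster 8 (5.63% and 5.52% against 2.91% and 5.04%), whereas the shares of the remaining subclusters overlapped. The part of these shares in the resident gene levels was not tested.

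Among 13 measured chemokine and receptor genes, 5 were lower and 1 higher at an unadjusted p under 0.05 (background 1.83% and 1.98%). Ccl12, a ligand of CCR2, had 116 and 88.7 CPM in WT-CD, 37.0 and 34.3 in R403Q-CD, against 56.4 and 18.2 in R403Q-EMPA (-1.53 ± 0.34 for R403Q-CD against WT-CD, adjusted p = 1 in edgeR). Ccl2 (-1.14) and Ccl7 (-1.40, and from -0.83 without R403Q-CD 1 to -2.24 without R403Q-CD 2), which lead subcluster 4, were lower in both R403Q-CD libraries, as was the receptor gene Ccr1 (-0.59), while Cxcr4 was higher (1.10). None passed the adjusted test. Subcluster 4 itself held 7.51% and 10.4% of the members of WT-CD against 6.50% and 7.28% of R403Q-CD. Its part in the Ccl2 and Ccl7 changes was not tested. Of 8 measured cytokine genes, Il1b, the inflammasome cytokine, was higher in R403Q-CD, with 33.9 and 32.2 CPM against 13.5 and 17.6 in WT-CD and 13.1 and 0 in R403Q-EMPA (1.11 ± 0.49 against WT-CD, unadjusted p = 0.0468). In R403Q-CD it was seen in 15 and 21 nuclei. Il1b is among the leading genes of subcluster 3 (106 CPM against 8.47 in the other members), whose share was larger in R403Q-CD, as given above. The part of this share in the Il1b change was not tested.

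Genes of lipid-laden and repair macrophages rested on few nuclei. Gpnmb had 0 UMIs in both WT-CD libraries and 48 UMIs in R403Q-CD, at least 15.0-fold higher against a floor of 3 UMIs over the group, but the 30 UMIs of R403Q-CD 1 and the 18 of R403Q-CD 2 each lay in 1 nucleus. Spp1, osteopontin, had 98 UMIs in R403Q-CD 1, in 9 nuclei with up to 38 in 1 of them, and 7 in R403Q-CD 2. Trem2, the receptor that marks the same state, had 84.1 and 67.6 CPM in WT-CD against 58.5 and 41.2 in R403Q-CD (-0.61).

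Other genes with the smallest p-values were Gas7 (575 and 451 CPM in R403Q-CD against 895 and 1070 in WT-CD, -0.94) and Emp1 (-0.71), both lower, and the chromatin gene Arid5b (269 and 228 against 482 and 405, 0.83), higher. Abcc9 (-1.70), Pdgfrb (-1.64), Robo2 (-2.17) and G630055G22Rik (-3.22) were also lower, and the first pair are pericyte genes. Robo2 (15.9 and 26.3 CPM in WT-CD, at most 4.93 elsewhere) passed the filter on low counts only through WT-CD. The same holds for G630055G22Rik (10.0 and 22.8 CPM, at most 2.06 elsewhere). The summed level of 10 pericyte genes in members was 166 and 156 CPM in WT-CD, 55.4 and 78.5 in R403Q-CD, against 56.0 and 74.6 in R403Q-EMPA. Without subclusters 5 and 8 the sums were 66.8 and 43.9, 50.0 and 52.0, and 48.4 and 37.7 CPM, and the Abcc9 difference was 0.10. Pdgfrb, Robo2 and G630055G22Rik were not tested without these subclusters. The selection of nuclei read the 13 mitochondrially encoded genes, through the limit of 5% of UMIs, so their levels are a description only: their summed level was 26623 and 22314 CPM in WT-CD, 18936 and 20321 in R403Q-CD, against 24799 and 30609 in R403Q-EMPA.

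The second comparison asked what empagliflozin changed in macrophages of mutant hearts. Between R403Q-EMPA and R403Q-CD 4 of 11153 genes passed in edgeR (0.0359%), and between R403Q-EMPA and WT-CD 42 passed (0.377%), 18 higher and 24 lower. The 42 include Hspa1a and Mamdc2, which passed the filter on low counts only through the group where each is high. Against R403Q-CD 0.0269% of genes passed as lower, 7.14% were below an unadjusted p of 0.05 (4.18% lower), and the libraries of the groups did not overlap for 39.1% (19.4% with both lower). Against WT-CD these shares were 0.215% lower, 10.2% (5.67% lower) and 39.4% (18.7% with both higher). These comparisons share the R403Q-EMPA libraries, and their values are given side by side. Hsph1, a protein-folding chaperone, rose and Hdac9, a histone deacetylase, fell in both.

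Chaperones keep other proteins folded. HSP70 proteins bind unfolded chains, cochaperones of the DNAJ family deliver them, HSP110 proteins reload HSP70 with ATP, and HSP90 acts on kinases and receptors late in their folding. When unfolded proteins accumulate, the factor HSF1 binds DNA elements made of repeated GAA and TTC units and raises transcription of many of these genes.

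Hsph1, the inducible HSP110, had 17.7 and 16.7 CPM in WT-CD, 29.6 and 24.0 in R403Q-CD, against 117 and 99.4 in R403Q-EMPA. Both treated libraries were above all others. The log2 fold change was 2.02 ± 0.22 against R403Q-CD (SE, n = 2 libraries a group, edgeR adjusted p = 0.0214) and 2.66 ± 0.24 against WT-CD (adjusted p = 0.00285). As a description, its pooled level was higher in R403Q-EMPA than in either other group in all 10 subclusters. In subcluster 2 it was 21.8, 22.8 and 106 CPM over WT-CD, R403Q-CD and R403Q-EMPA, in subcluster 1 it was 8.97, 14.7 and 134, and in subcluster 6 it was 16.2, 24.7 and 91.1.

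Dnaja1, a DNAJ partner of HSP70, had 81.2 and 62.3 CPM in WT-CD, 140 and 96.7 in R403Q-CD, against 259 and 273 in R403Q-EMPA. It rose against WT-CD (1.87 ± 0.21, edgeR adjusted p = 0.00999) and was 1.16 ± 0.20 higher than in R403Q-CD (adjusted p = 0.105). The R403Q-CD libraries lay between the other groups.

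Hspa1a, the inducible HSP70, had no UMI in any of the 4 libraries without the drug. R403Q-EMPA 1 held 28 UMIs in 22 nuclei and R403Q-EMPA 2 held 8 UMIs in 6 nuclei. The 36 UMIs make it at least 16.2-fold higher than in WT-CD and at least 17.3-fold higher than in R403Q-CD, with a floor of 3 UMIs over the group. It passed the filter on low counts only through R403Q-EMPA, where it is high, so no p is given for it and it is left out of the counts of the chaperone list below. Hspa1a and Hspa1b are near-identical copies, so the split of reads between them is uncertain.

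The stretches of 250 bases upstream of the start sites of these 3 genes are shown because the genes were higher together and HSF1 elements are known in such promoters. They come from RefSeq on build GRCm38.p6, not the GRCm39 build of the counts, and are written 5′ to 3′ on the gene's strand. Capitals mark the pattern TTCNNGAA or GAANNTTC, the core of the element, each of which reads the same on both strands. The stretch of Hsph1 lies at chr5:149636337-149636586 (minus strand), that of Dnaja1 at chr4:40722218-40722467 (plus strand) and that of Hspa1a at chr17:34972157-34972406 (minus strand).
Hsph1: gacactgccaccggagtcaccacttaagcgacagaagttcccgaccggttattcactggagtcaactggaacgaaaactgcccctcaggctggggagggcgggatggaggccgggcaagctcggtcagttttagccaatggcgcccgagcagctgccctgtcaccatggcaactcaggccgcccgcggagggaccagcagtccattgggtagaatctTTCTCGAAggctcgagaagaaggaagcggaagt
Dnaja1: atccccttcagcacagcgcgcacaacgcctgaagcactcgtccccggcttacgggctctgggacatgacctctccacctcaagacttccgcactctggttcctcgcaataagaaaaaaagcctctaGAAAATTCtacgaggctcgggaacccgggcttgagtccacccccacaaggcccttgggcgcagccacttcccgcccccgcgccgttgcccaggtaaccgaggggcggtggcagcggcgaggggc
Hspa1a: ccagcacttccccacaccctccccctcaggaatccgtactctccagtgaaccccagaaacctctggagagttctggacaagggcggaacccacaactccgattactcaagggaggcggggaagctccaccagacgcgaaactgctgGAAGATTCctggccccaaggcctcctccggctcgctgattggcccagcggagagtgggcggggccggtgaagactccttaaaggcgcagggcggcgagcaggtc

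The pattern began 33 bases before the start site in Hsph1, 124 in Dnaja1 and 104 in Hspa1a. A neighbouring annotated start of Hsph1 holds the same match, and 2 other starts of Dnaja1 hold none. Of the 9 genes of the chaperone list with a promoter entry, 7 held the pattern, against 14.5% of 27025 genes. The 7 were Hsph1, Dnaja1, Hspa1a, Hspa1b, Hspb1, Hspe1 and Hspd1. Of these, Hspa1b was not tested in members, and Hspe1 and Hspd1 did not reach the unadjusted threshold against R403Q-CD or WT-CD. Dnajb1 and Bag3, which reached it as higher against each, held no pattern. Hspa8, Hsp90ab1, Hsp90aa1, Cryab and Hsf1 had no entry. Whether the pattern goes with the rise was not tested. A match is a description of the letters and shows no binding.

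The other 12 measured genes of the chaperone list were above 0 against R403Q-CD and against WT-CD, with medians of 0.83 and 1.15 beside 0.0051 and -0.0028 over all genes. Against WT-CD 4 passed the adjusted test and 8 were below an unadjusted p of 0.05 (background for higher 0.161% and 4.53%), and against R403Q-CD 1 passed and 7 were below it (0.00897% and 2.96%). The summed level of the list was 651 and 489 CPM in WT-CD, 774 and 698 in R403Q-CD, against 1498 and 1314 in R403Q-EMPA. Between R403Q-CD and WT-CD the median of the 12 genes was 0.33 and none passed.

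The constitutive HSP70 gene Hspa8 had 118 and 124 CPM in WT-CD, 155 and 144 in R403Q-CD, against 329 and 228 in R403Q-EMPA (1.22 ± 0.19 against WT-CD, adjusted p = 0.0346 in edgeR). Hsp90ab1, the constitutive HSP90, had 170 and 123, 203 and 150, and 316 and 352 CPM (1.17 ± 0.20, adjusted p = 0.0443). Its inducible paralog Hsp90aa1 had 37.7 and 42.1, 45.6 and 56.2, and 86.7 and 86.8 CPM and missed the threshold (1.13 ± 0.21, adjusted p = 0.0616). Dnajb1 (1.74), Hspb1 (1.37) and Bag3 (0.78) were at an unadjusted p under 0.05 only, and their size depended on single libraries. Without WT-CD 1 Dnajb1 was 3.48 and Hspb1 2.31, without WT-CD 2 they were 1.12 and 0.91, and without R403Q-EMPA 1 Bag3 was 0.08.

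Outside the list, 3 further chaperone genes passed against WT-CD. Chordc1, an HSP90 cochaperone, had 70.6 and 64.1 CPM in WT-CD, 69.6 and 59.0 in R403Q-CD, against 153 and 141 in R403Q-EMPA. Ahsa2, related to the activator of the HSP90 ATPase, had 33.5 and 30.7, 35.7 and 35.7, and 84.6 and 91.0 CPM. Hspa4l, of the HSP110 family, had 73.0 and 75.5, 69.0 and 78.2, and 148 and 204 CPM. The changes against WT-CD were 1.13, 1.44 and 1.23, and those against R403Q-CD 1.20, 1.29 and 1.24 with edgeR adjusted p-values of 0.0635, 0.0851 and 0.0851.

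**Figure D3:**
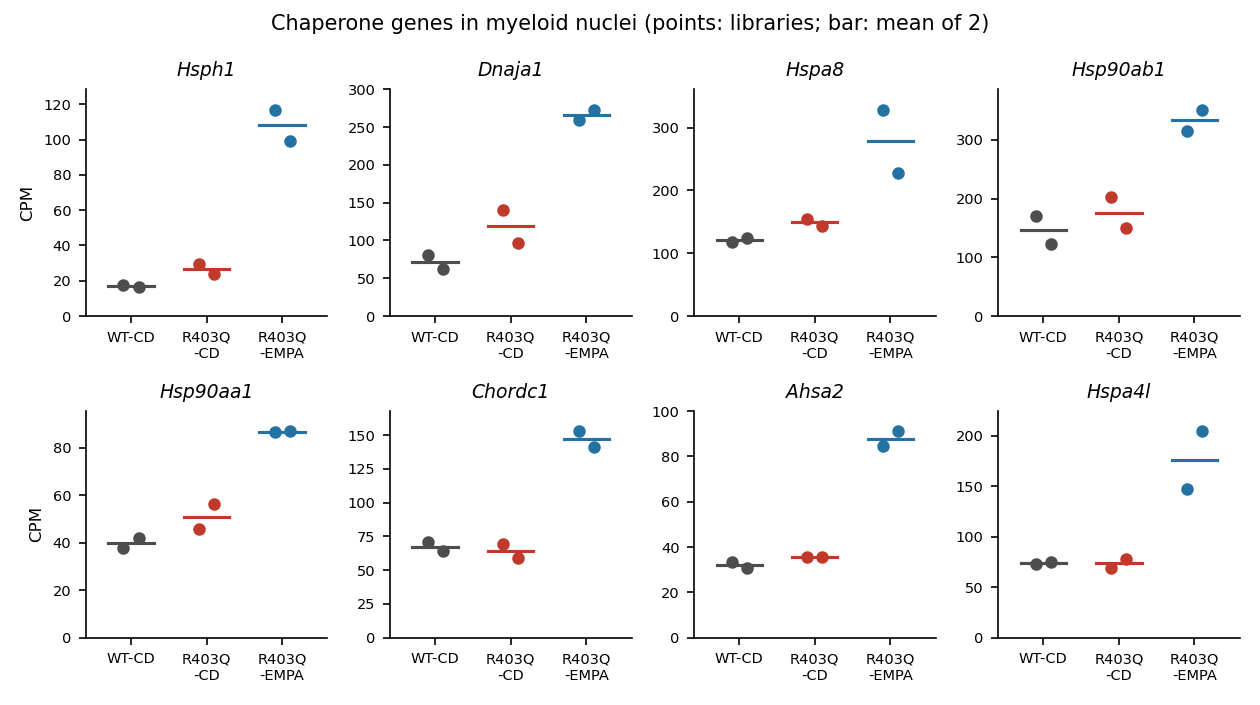
Level of 8 chaperone genes in members as CPM after TMM scaling, by library, with the groups in colour and lines for the group means; each panel has its own scale starting at 0. The 2 R403Q-EMPA libraries are the highest in all panels, for example 117 and 99.4 CPM of Hsph1 against at most 29.6 CPM elsewhere.

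Timd4, the receptor by which resident macrophages take up dying cells, had 132 and 129 CPM in WT-CD, 94.9 and 85.1 in R403Q-CD, against 26.1 and 50.4 in R403Q-EMPA. The groups did not overlap, and the log2 fold change against WT-CD was -1.87 ± 0.26 (edgeR adjusted p = 0.0256), against R403Q-CD -1.33 ± 0.26 (adjusted p = 0.167). In subcluster 2 the pooled Timd4 level was 287, 178 and 78.8 CPM over WT-CD, R403Q-CD and R403Q-EMPA, in subcluster 6 it was 160, 167 and 40.7 CPM, and in subcluster 7 it was 162, 73.3 and 34.8 CPM. The level was thus lower in R403Q-EMPA within the subclusters that hold most of it.

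Of the 18 resident genes, Timd4 and Mamdc2 passed in edgeR against WT-CD, both lower, and 5 were below an unadjusted p of 0.05. Over all genes 0.215% passed as lower and 5.67% were lower at an unadjusted p under 0.05. Mamdc2 (-2.42 ± 0.38) is in both counts of the list, but it entered the test only through WT-CD, where it is high. Cd36, which takes up lipids, had 293 and 317, 248 and 230, and 166 and 202 CPM (-0.74, adjusted p = 0.102). Against R403Q-CD the list had a median of 0.09 and none passed, with Lyve1 higher (0.40, and 0.20 without R403Q-EMPA 2) and Timd4 and Cd36 lower at an unadjusted p under 0.05. Timd4 was -0.83 and Cd36 -0.24 against R403Q-CD without R403Q-EMPA 1. The MHC class II list had medians of -0.07 against R403Q-CD and -0.16 against WT-CD, and none of its 9 measured genes passed.

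Rgl1, an activator of Ral GTPases, had 965 and 849 CPM in WT-CD, 679 and 416 in R403Q-CD, against 239 and 228 in R403Q-EMPA. It fell by 1.95 ± 0.22 on the log2 scale against WT-CD (edgeR adjusted p = 0.00999), and the R403Q-CD libraries lay between. Hdac9, a class IIa histone deacetylase, had 1288 and 1631 CPM in WT-CD, 1579 and 1622 in R403Q-CD, against 631 and 717 in R403Q-EMPA. It fell against both, by 1.25 ± 0.17 against R403Q-CD (adjusted p = 0.0478) and by 1.12 ± 0.17 against WT-CD (adjusted p = 0.0346). In its case both control-diet groups overlapped.

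Cdk6, a cyclin-dependent kinase of the G1 phase, had 394 and 525 CPM in WT-CD, 547 and 436 in R403Q-CD, against 213 and 167 in R403Q-EMPA (-1.26 ± 0.20 against WT-CD, edgeR adjusted p = 0.0346, and -1.36 ± 0.20 against R403Q-CD, adjusted p = 0.0635). Subcluster 3 held the most, with pooled levels of 1211, 1225 and 457 CPM over WT-CD, R403Q-CD and R403Q-EMPA. Plxna4, a semaphorin receptor, had 804 and 836, 708 and 646, and 385 and 395 CPM (-1.07 ± 0.15 against WT-CD, adjusted p = 0.0256). Cmah, the enzyme that hydroxylates sialic acid, had 495 and 469, 456 and 321, and 162 and 221 CPM (-1.35 ± 0.21, adjusted p = 0.0346). Plxna4 and Cmah, and Lair1 below, were picked after their values were seen.

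Etv5, an ETS transcription factor, had 129 and 132 CPM in WT-CD, 128 and 99.5 in R403Q-CD, against 25.4 and 51.8 in R403Q-EMPA (-1.86 ± 0.28 against WT-CD, edgeR adjusted p = 0.0340). The unannotated transcripts Gm39816 (153 and 160, 164 and 142, and 53.0 and 60.2 CPM) and 2610203C22Rik (284 and 301, 306 and 268, and 133 and 120 CPM) fell against both groups, by 1.45 and 1.17 against R403Q-CD (adjusted p = 0.0311 and 0.0478). Lair1, an inhibitory receptor for collagen, had 193 and 183, 166 and 154, and 95.6 and 63.0 CPM (-1.20, adjusted p = 0.0346). Tafa5 (-2.36) and Gm17276 (-2.73) also fell against WT-CD. Gm39816 (379 against 108 CPM in the other members) and Tafa5 (70.9 against 27.1 CPM) are among the leading genes of subcluster 4, which held 2.54% and 4.98% of the members of R403Q-EMPA and 6.50% to 10.4% in the other libraries. The part of this share in their changes was not tested.

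Another part of the calls sat in the subclusters led by other cell types. Mdga2 (-3.75) and Kirrel3 (-3.29), both adhesion genes, and Abcc9 (-2.12) passed against WT-CD, and their levels lay largely in subcluster 8, where pooled Kirrel3 was 1116, 436 and 102 CPM and Abcc9 734, 122 and 127 CPM over WT-CD, R403Q-CD and R403Q-EMPA. Without subclusters 5 and 8, Kirrel3 was -0.55 (edgeR adjusted p = 0.927) and Abcc9 -0.73 (adjusted p = 0.502), and Mdga2 was not tested. Over all subclusters Mdga2 was -2.44 without R403Q-EMPA 1, where it did not pass, and -5.90 without R403Q-EMPA 2. Kirrel3 was -2.40 and -4.22 and Abcc9 -1.42 and -2.81 without the same libraries in turn, and neither passed without R403Q-EMPA 1. Of the 42 calls, 38 remained without these subclusters, among 67.

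Genes that rose besides chaperones included Pde7b, a phosphodiesterase that breaks down cyclic AMP, with 129 and 138 CPM in WT-CD, 195 and 173 in R403Q-CD, against 463 and 312 in R403Q-EMPA (1.56 ± 0.20 against WT-CD, edgeR adjusted p = 0.0164). Its pooled level in subcluster 6 was 192, 223 and 767 CPM over WT-CD, R403Q-CD and R403Q-EMPA. Ddit4, an inhibitor of the growth kinase complex mTORC1, had 12.4 and 17.6, 25.9 and 50.1, and 53.7 and 86.8 CPM (2.21 ± 0.39, adjusted p = 0.0471), and was the gene that passed among 12 of the glucocorticoid list. Slc16a14 (17.1 and 40.4, 50.5 and 46.0, and 127 and 113 CPM; 2.14 ± 0.31, and 1.58 without WT-CD 1, where it did not pass, to 2.82 without WT-CD 2), the histone gene H2bc6 (1.52), Gm56663 (1.56) and Gm12940 (1.49) also rose against WT-CD. Gm56663 and Nppa are among the leading genes of subcluster 7, which held 18.6% and 23.5% of the members of R403Q-EMPA and 9.09% to 16.3% in the other libraries, and the part of this share in their changes was not tested.

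Nppa, the atrial natriuretic peptide of cardiomyocytes, had 24.7 and 14.0 CPM in WT-CD, 63.5 and 41.2 in R403Q-CD, against 307 and 82.6 in R403Q-EMPA (3.33 ± 0.53 against WT-CD, edgeR adjusted p = 0.0346). It also rose in fibroblast nuclei (4.08, adjusted p = 0.0168) and was 4.19 higher in endothelial nuclei (adjusted p = 0.0562). Without R403Q-EMPA 1 the change in members was 2.04 and did not pass (adjusted p = 0.0973), nor did it pass without any 1 of the 4 control-diet libraries (0.0577 to 0.185). The summed level of 9 cardiomyocyte genes that the rule did not read was 1691 and 1114 CPM in members of WT-CD, 1554.5 and 1652 in R403Q-CD, against 1909.5 and 1923 in R403Q-EMPA, and its part in the Nppa result was not tested.

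Clock genes, which set daily rhythms, separated the treated libraries as well. Of 15 measured, 2 passed against WT-CD, Dbp, a transcription factor driven by the clock (74.7 and 47.4 CPM in WT-CD, 36.4 and 51.4 in R403Q-CD, against 17.2 and 12.6 in R403Q-EMPA; -1.99 ± 0.33, edgeR adjusted p = 0.0394), and Nr1d2, the nuclear repressor REV-ERB beta (145 and 139, 115 and 129, 72.2 and 61.6 CPM; -1.06 ± 0.18, adjusted p = 0.0378). At an unadjusted p under 0.05 were 9 lower and 1 higher, the higher being Arntl, the activating partner in the clock (11.2 and 10.5, 12.9 and 24.7, and 45.4 and 35.0 CPM). Over all genes 0.215% passed as lower, and at an unadjusted p under 0.05 5.67% were lower and 4.53% higher. The list's median was -0.59 against WT-CD, -0.49 against R403Q-CD and -0.17 between R403Q-CD and WT-CD.

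Of the genes listed for neutrophils and lymphocytes that were measurable in members, none passed in edgeR. At an unadjusted p under 0.05 against WT-CD, Csf3r (0.45, adjusted p = 0.455) and Skap1 (2.85, adjusted p = 0.202) were higher and Bank1 (-0.99, adjusted p = 0.226) was lower.

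In the lists of inflammation and lipid handling no gene passed. Il1b was lower with empagliflozin than in R403Q-CD (-1.98, edgeR adjusted p = 0.458), on 19 UMIs in R403Q-EMPA 1, 10 of them in 1 nucleus, and 0 in R403Q-EMPA 2. Without R403Q-EMPA 2 the difference was -1.33, and without R403Q-EMPA 1 it was -8.46, a value set by the prior count. The chemokines Ccl6 (206 and 186, 139 and 162, and 404.4 and 231 CPM; 1.10) and Ccl9 (0.82) were higher than in R403Q-CD at an unadjusted p under 0.05, and none of 13 chemokine genes passed. Of 12 measured genes of lipid-associated macrophages, Gpnmb left out because WT-CD had no UMI of it, 10 were above 0 against R403Q-CD (median 0.28) and 4 were higher at an unadjusted p under 0.05 (background 2.96%), the lysosomal protease genes Ctsb (0.63) and Ctsd (0.56), the apolipoprotein gene Apoe (0.59) and Fabp5 (0.94). Against WT-CD 11 were above 0 (median 0.46) and 3 were higher at an unadjusted p (4.53%), Ctsb (0.44), Ctsd (0.80) and the lipid droplet gene Plin2 (0.50). Gpnmb had 2 UMIs and 1 UMI in R403Q-EMPA against 30 and 18 in R403Q-CD, where each library's UMIs lay in 1 nucleus. Of 12 measured interferon response genes, 0 passed and 0 were below an unadjusted p of 0.05 in any comparison (edgeR). Of 17 cell cycle genes, 4 were higher and 1 lower against WT-CD at an unadjusted p under 0.05 (background 4.53% and 5.67%). Mki67 was among the higher (22.4 and 42.1, 33.9 and 77.5, and 116 and 63.0 CPM). Fn1, fibronectin, was set by single libraries, with 15.3 and 9.66, 108 and 7.55, and 159 and 5.60 CPM.

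**Figure D4:**
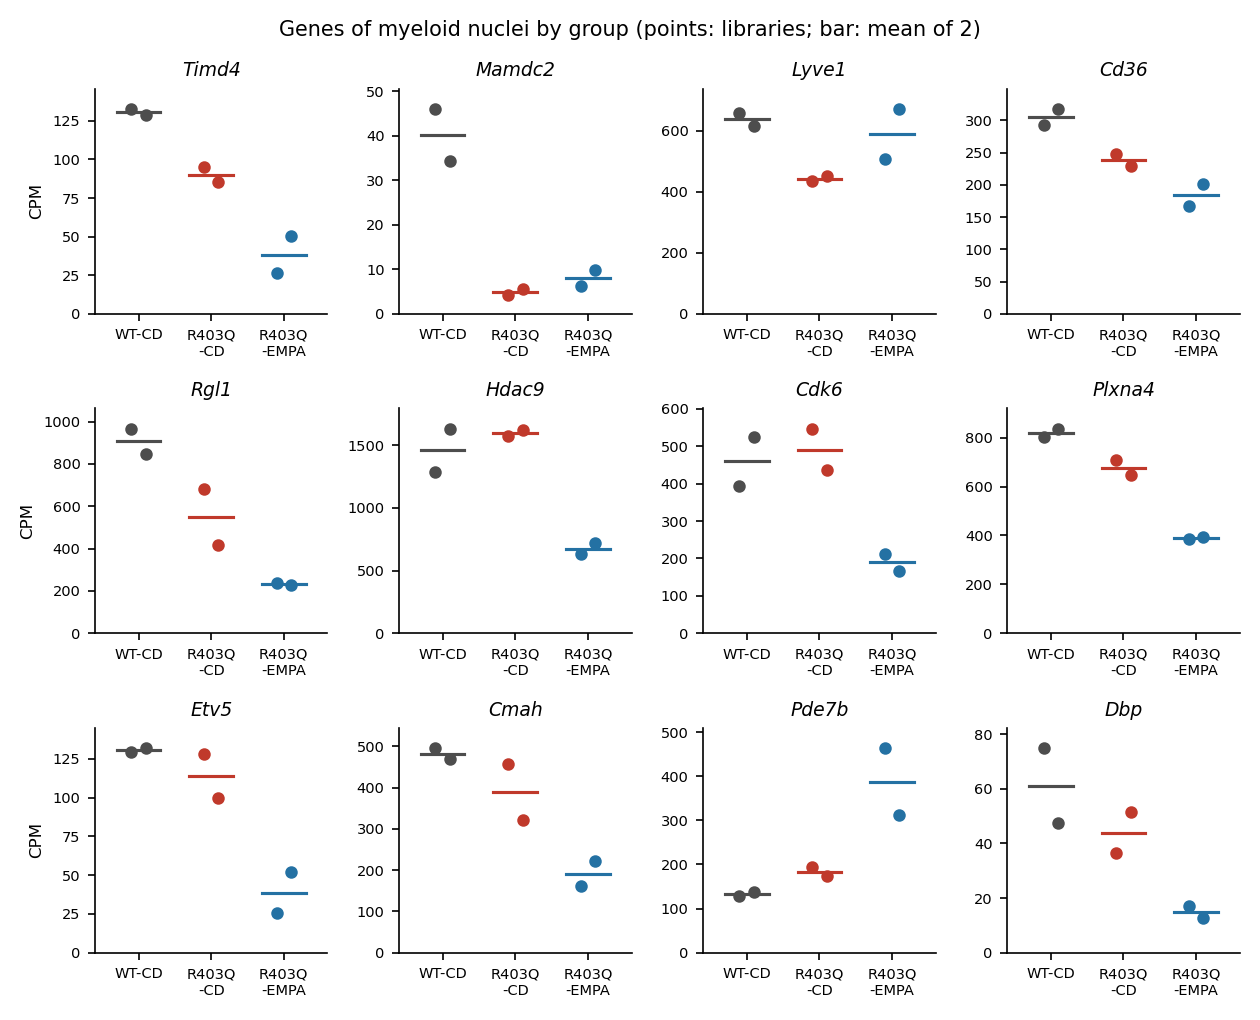
Level of 12 genes in members as CPM after TMM scaling, by library, with the groups in colour and lines for the group means; each panel has its own scale starting at 0. Timd4 lies at 132 and 129 CPM in WT-CD and at 26.1 and 50.4 CPM in R403Q-EMPA, and Pde7b is the 1 gene of the 12 whose R403Q-EMPA libraries are both above all others.

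The calls depended on which libraries were in the fit. Without subclusters 5 and 8, 1 gene passed between R403Q-CD and WT-CD, 14 between R403Q-EMPA and R403Q-CD, and 67 between R403Q-EMPA and WT-CD. Between R403Q-EMPA and R403Q-CD no gene passed without R403Q-CD 1, without R403Q-CD 2 or without R403Q-EMPA 1, and 27 passed without R403Q-EMPA 2. Against WT-CD between 4 and 76 genes passed when 1 library was left out, and Hsph1 and Rgl1 passed in all 16 alternatives, Dnaja1 in 15 and Gm39816 in 12. Hdac9, Plxna4, Slc16a14 and 2610203C22Rik passed in 11, Timd4, Cdk6, Pde7b, Cmah, Hspa8, Chordc1, Ahsa2, Lair1, H2bc6 and Nppa in 10, and Etv5, Nr1d2, Ddit4, Tafa5, Hspa4l and Gm56663 in 9. Mamdc2, Dbp, Hsp90ab1 and Kirrel3 passed in 8, Mdga2 in 7 of the 15 that tested it, Gm12940 in 6, and Gm17276 and Abcc9 in 5. DESeq2 shared 36 of the 42 calls and lost Gm12940, Gm17276, Hspa1a, Kirrel3, Mamdc2 and Sncaip.

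The changes were then compared with those of 16027 fibroblast and 13733 endothelial nuclei of the same libraries, by testing the difference of the changes in 1 edgeR model with a term for each library. Against WT-CD the change with empagliflozin differed between members and fibroblasts for 54 of 14593 genes (0.370%), and between members and endothelial nuclei for 54 of 13799 (0.391%). Against R403Q-CD the shares were 0.158% and 0.116%. Hsph1 rose by 2.74 ± 0.14 in fibroblast nuclei (adjusted p = 0.000112) and by 3.71 ± 0.17 in endothelial nuclei (adjusted p = 0.000162), beside 2.66 in members, and neither difference passed (adjusted p = 1 and 0.214). Dnaja1, Hspa8, Hsp90ab1, Chordc1 and Ahsa2 also rose in both, by 1.05 to 1.57 in fibroblast and 1.39 to 1.78 in endothelial nuclei, with no difference from members that passed. Hspa4l rose less in members than in fibroblasts, where it rose by 2.43 (difference -1.16 ± 0.20, adjusted p = 0.0132). Dbp fell by 1.86 in fibroblast and 2.64 in endothelial nuclei, and Nr1d2 by 0.82 and 1.23.

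Other genes differed between kinds of nuclei. Rgl1 differed by -0.19 in fibroblast and 0.09 in endothelial nuclei, where neither passed, and its change in members was lower than in both (difference -1.71 ± 0.21, adjusted p = 0.00199, and -2.06 ± 0.21, adjusted p = 0.000886). Pde7b was 0.26 and -0.03 there, and its change in members was higher by 1.32 ± 0.18 (adjusted p = 0.00237) and 1.57 ± 0.23 (adjusted p = 0.0110). Cdk6 was -0.18 and 0.04 there (difference -1.03 and -1.33, adjusted p = 0.0134 and 0.00296), and Plxna4 -0.13 and 0.21 (difference -0.89 and -1.31, adjusted p = 0.0300 and 0.00367). Hdac9 and Etv5 differed from fibroblasts (difference -1.16 and -1.44, adjusted p = 0.0199 and 0.0231), but the difference from endothelial nuclei did not pass. Timd4 has too few UMIs in the other nuclei for a change to be given there.

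Between R403Q-CD and WT-CD 1 of 14593 genes differed from fibroblasts (0.00685%) and 0 of 13799 from endothelial nuclei in edgeR (682 at an unadjusted p under 0.05). The 1 gene was Mamdc2, whose change was -0.10 in fibroblast nuclei and lower in members by 2.94 ± 0.35 (adjusted p = 0.0022). Mamdc2 is not particular to members. It lay at 48.1 to 74.8 CPM in fibroblast and 17.9 to 39.4 CPM in endothelial nuclei, against at most 45.9 CPM in members.

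**Figure D5:**
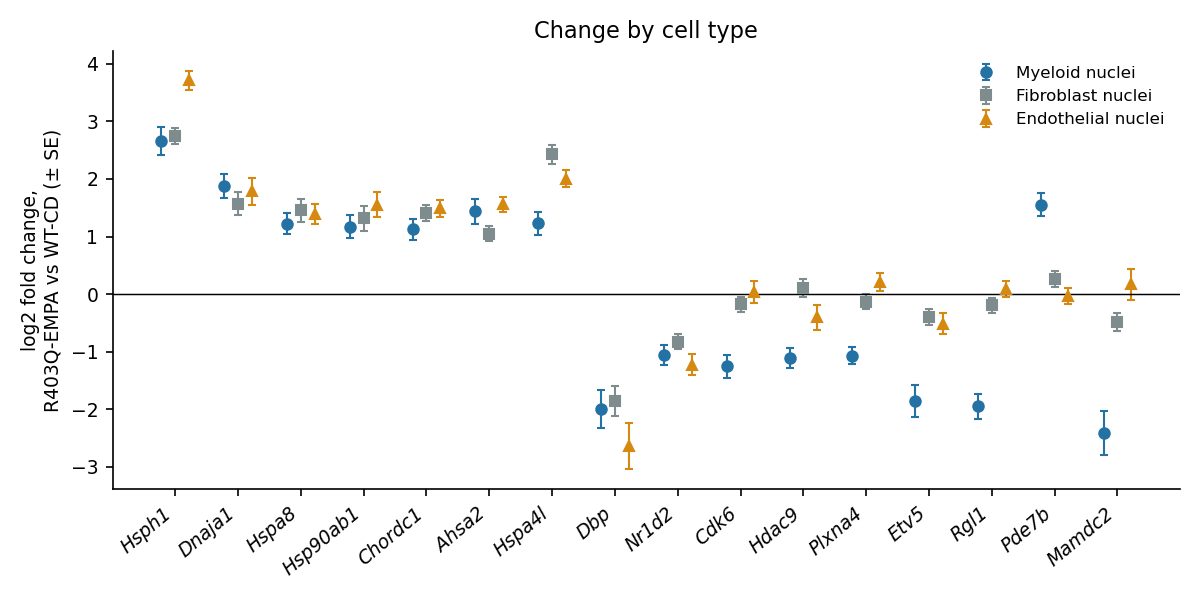
Log2 fold change between R403Q-EMPA and WT-CD with its SE for 16 genes in myeloid, fibroblast and endothelial nuclei (edgeR, 2 libraries a group). The chaperone genes lie above 0 in all 3 kinds of nuclei, whereas Rgl1, at -1.95 in myeloid nuclei, lies at -0.19 and 0.09 in the others.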

How the data were processed

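Nuclei of 6 left ventricle libraries, 2 per group, were analysed. The authors deposited unfiltered-for-quality UMI counts per gene and nucleus, made with Cell Ranger 8.0.1 per the file headers against GRCm39 per the labels; the counts are whole numbers without normalization, and reads that map equally to several genes are not counted, which lowers near-identical copies. Nuclei with at least 500 UMIs, at least 300 genes and at most 5% mitochondrial UMIs were kept, and members were chosen by marker UMIs as given in the report. The members and the 35 gene lists were chosen with earlier results of these data known. Subclusters came from scanpy 1.11.5. Doublets were called with scrublet and kept.

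Member counts were summed per library and tested with edgeR 4.0.16 (R 4.3.3), with filterByExpr, TMM, the quasi-likelihood F test over all 6 libraries (3 residual degrees of freedom) and Benjamini-Hochberg adjustment over 11153 genes. Calls needed an adjusted p under 0.05. DESeq2 1.42.0 was an alternative. Differences of changes from fibroblast and endothelial nuclei used the group by cell type term with library as a block. The scripts were tested on simulated data. Values given as ± are SEs of log2 fold changes. Named were, for each comparison, the 10 largest and 10 smallest changes among called genes whose libraries did not overlap, the 10 smallest p-values where under 6 genes were called, and genes of the lists. Shares have 95% Wilson intervals, which cover counting error only. The libraries of a group differed by more than sampling noise (chi-square per degree of freedom 2.34 to 4.12).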

Additional observations from a re-analysis of the deposited data

Results flagged for a closer look

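All results below had a change in myeloid nuclei that differed, by the test of the difference itself (edgeR, adjusted p under 0.05), from the change in another kind of nuclei of the same libraries; each value is the log2 change in members minus that in the other nuclei. Between R403Q-CD and WT-CD, Mamdc2 differed from fibroblast nuclei by -2.94.

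Between R403Q-EMPA and R403Q-CD, the difference from fibroblast nuclei was -1.19 for Hdac9, -1.09 for Cdk6, -1.03 for Hspa4l and -2.34 for Cadm1, and that from endothelial nuclei was -1.21 for Cdk6. Cadm1, a cell adhesion gene, had in members 173 and 200 CPM in WT-CD, 256 and 255 in R403Q-CD, against 129 and 136 in R403Q-EMPA, where its change was -0.95 (adjusted p = 0.0885), and in fibroblasts the change was 1.42 (adjusted p = 0.163) at 4.58 to 21.0 CPM.

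Between R403Q-EMPA and WT-CD, the difference from fibroblast nuclei was 1.32 for Pde7b, -3.25 for Kirrel3 (-3.245 before rounding), -1.89 for Mamdc2, -2.85 for Tafa5, -1.71 for Rgl1, -1.44 for Etv5, -1.16 for Hdac9, -1.03 for Cdk6, -1.16 for Hspa4l and -0.89 for Plxna4. The difference from endothelial nuclei was 1.57 for Pde7b, -2.985 for Mdga2, -2.68 for Mamdc2, -2.06 for Rgl1, -1.02 for Cd36, -1.33 for Cdk6, -1.31 for Plxna4, -0.88 for 2610203C22Rik and -3.03 for Cmah. Cmah was 1.80 higher in endothelial nuclei of R403Q-EMPA (adjusted p = 0.278) and fell in members. The difference for Hspa4l came with a smaller rise in members than in fibroblasts. Kirrel3 and Mdga2 lay largely in the member subcluster led by endothelial genes.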

How the results depend on the processing

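No paired analysis was possible because the replicate numbers were given in accession order and pair no libraries. Calls at a mitochondrial limit of 1% could not be fitted, since R403Q-EMPA 2 kept 0 members, and a limit of 3% was added after seeing the data. Of 120 gene changes named, 116 kept their sign in every alternative run. The cause of the differences below was not tested, except that fits with fewer libraries or genes have less or other data by construction.

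For R403Q-CD against WT-CD (0 calls), DESeq2 called 2 genes, no filter on low counts 41, removal of doublets 2, and a stricter member rule, no mitochondrial limit and removal of subclusters 5 and 8 called 1 each. For R403Q-EMPA against R403Q-CD (4 calls), DESeq2 called 27, RLE scaling 2, no filter 162, a fit of only the groups compared 0, the stricter rule 16, no mitochondrial limit 8, a limit of 3% 3 (1 shared, with Hdac9, Gm39816 and 2610203C22Rik lost) and removal of subclusters 5 and 8 14. For R403Q-EMPA against WT-CD (42 calls), DESeq2 called 67, no filter 328, the fit of only the groups compared 3, a limit of 3% 28 (25 shared) and removal of subclusters 5 and 8 67. Without the filter, differences of changes numbered 67, 166 and 256 from endothelial nuclei and 40, 144 and 254 from fibroblast nuclei, in the order of the 3 comparisons above.

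With each library left out in turn, calls ranged from 0 to 1, 0 to 27 and 4 to 76 in the same order, differences from endothelial nuclei from 0 to 7, 13 to 75 and 10 to 156, and those from fibroblast nuclei from 1 to 11, 0 to 79 and 9 to 119. The differences in member share, in percentage points, ranged from -1.031 to 1.415 for R403Q-CD against WT-CD, from -1.154 to -0.423 for R403Q-EMPA against R403Q-CD and from -1.819 to 0.627 for R403Q-EMPA against WT-CD. For R403Q-EMPA against R403Q-CD it was also -0.287 without the mitochondrial limit, -0.323 with cardiomyocyte nuclei left out, -1.30 at a limit of 3% and -3.10 at 1%. Ccr2 (-1.683 to 1.505 against R403Q-CD and -1.593 to 1.595 against WT-CD) and Fn1 (-1.182 to 3.619 against WT-CD) turned sign, on the log2 scale, without R403Q-EMPA 1. Without that library the changes against R403Q-CD were 0.62 for Ccl6, 0.59 for Fabp5 and 0.37 for Ctsd, and without R403Q-CD 2 Trem2 was -0.38 against WT-CD.

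The state shares also turned, in percentage points. For R403Q-EMPA against WT-CD the ranges were Folr2 -1.717 to 0.9232, H2-Aa -5.075 to 1.753, H2-Eb1 -2.601 to 6.23, Cd74 -6.543 to 4.465, Itgax -0.217 to 0.2759 and Flt3 -0.2406 to 0.01387. For R403Q-EMPA against R403Q-CD the ranges were Ccr2 -0.7258 to 4.314, H2-Aa -5.768 to 3.079, H2-Eb1 -2.078 to 3.855, Cd74 -9.318 to 1.988, Flt3 -0.2522 to 0.002289 and Mki67 -0.07895 to 0.8167. For R403Q-CD against WT-CD the ranges were H2-Aa -4.74 to 4.107, H2-Eb1 -3.49 to 5.341, Cd74 -3.027 to 8.279 and Flt3 -0.07251 to 0.09567.

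Other alternatives that turned a direction were no mitochondrial limit for the member share of R403Q-CD against WT-CD (-0.928), cardiomyocyte nuclei left out of the total for R403Q-EMPA against WT-CD (0.112), and removal of subclusters 5 and 8 for Abcc9 between R403Q-CD and WT-CD (0.0979). Without thinning, Folr2 turned to 0.303, -0.134 and 0.169 in the same order, H2-Aa to 2.95 and Itgax to 0.887 for R403Q-CD against WT-CD, H2-Eb1 to -7.40 and -4.70 and Flt3 to 0.406 and 0.687 for R403Q-EMPA against R403Q-CD and WT-CD. Under the stricter member rule, Ccr2 turned to -0.0541, H2-Eb1 to -0.0639 and Itgax to 0.3135 for R403Q-CD against WT-CD, H2-Eb1 to -0.0106 and -0.0745, Flt3 to 0.207 and 0.327 for R403Q-EMPA against R403Q-CD and WT-CD, and Itgax to -0.0403 for R403Q-EMPA against R403Q-CD. Itgax and Flt3 were seen in at most 0.649% of members of any library after thinning, and in at most 3.82% and 1.78% without it.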
